A study of Mus musculus with 13 samples.

Results

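The genes described here are 10 amino acid transporters of C2C12 cells, a mouse line of muscle precursors: Slc7a5, Slc3a2, Slc7a11, Slc7a1, Slc7a3, Slc6a9, Slc1a4, Slc1a5, Slc38a1 and Slc38a2. They were taken by gene symbol from a deposited table of 23236 gene rows, and each symbol matched 1 row. The set was chosen by its FPKM values in these same libraries, with earlier results of the data in view, so its values are a description and support nothing beyond themselves. FPKM counts fragments scaled to transcript length and to the mapped fragments of the library, so levels of different genes can be set side by side.

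The table holds RNA-seq of myoblasts in a library labelled siLinc-Yy1 and of myoblasts in a library labelled siNC. By the usual reading of such labels, the siLinc-Yy1 cells received an siRNA against the noncoding RNA Linc-Yy1 and the siNC cells a control siRNA; the labels give no dose, time or sequence. Both libraries are C2C12 cells at the stage labelled myoblast, from RNA selected for poly(A), and the protocol describes growth in DMEM with serum. C2C12 is 1 established line, and the labels name no transgene in these libraries. Of the 13 samples of the series, 4 are RNA-seq and 9 are ChIP-seq, and only this pair of libraries was analysed. There is 1 library per condition, so no value has an error across replicates, no test was run, and every difference describes these libraries.

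Amino acids cannot cross the cell membrane unaided, and carriers of the solute carrier (Slc) families bring them in or swap them. Some use the sodium gradient to load the cell with small neutral amino acids, and exchangers then trade these for essential ones such as leucine. When amino acids run short or unfolded proteins build up, the transcription factor ATF4 raises several of these carriers together with enzymes of amino acid synthesis. It binds a composite element for C/EBP and ATF proteins, called CARE or the amino acid response element.

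The element was looked for in promoters because several of the carriers were higher together in siLinc-Yy1. Promoter windows of RefSeq on the build GRCm38.p6, each 250 bases before to 50 bases after a transcript start, were at hand for 6 of the 10 genes, in 9 windows. The letters searched were TGATGNAA on both strands. They occurred in 2 of the 9 windows, those of Slc7a11 and Slc1a4, and in 3.97% of all 32851 windows. The stretches below are shown because they hold these matches, with Asns and Chac1, established ATF4 targets of amino acid shortage, beside them. Capitals mark the matches, and each runs 5′ to 3′ along the gene's own strand.
Slc7a11: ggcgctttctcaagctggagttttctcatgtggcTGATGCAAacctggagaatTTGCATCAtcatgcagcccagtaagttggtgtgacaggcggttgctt
Slc1a4: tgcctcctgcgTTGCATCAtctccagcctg
Asns: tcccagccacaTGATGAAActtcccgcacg
Chac1: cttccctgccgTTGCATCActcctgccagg

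The Slc7a11 stretch is the 100 bases before the start, chr3:50443614-50443713 on the minus strand. It holds 2 matches in opposite orientation, beginning 66 and 47 bases before the start; the mouse gene is known for such an inverted arrangement. In Slc1a4 (chr11:20332699-20332728, minus strand) the match begins 4 bases before the start and crosses it. In Asns (chr6:7693214-7693243, minus strand) it begins 23 bases before the start, and in Chac1 (chr2:119351038-119351067, plus strand) 193 bases before it. The windows of Slc3a2, Slc6a9, Slc7a1 and Slc38a2 lack these letters, but bases outside the windows were not searched. No window was at hand for Slc7a5, Slc7a3, Slc1a5 and Slc38a1. CACGTG, the E-box that MYC can bind, was in no member window and in 7.15% of all windows. TGACNNNGC is the core of the element bound by the antioxidant factor NRF2. It was in 4 of the 9 member windows (of Slc6a9, Slc7a1 and Slc38a2) and in 12.4% of all windows. A match of letters is not a measured binding site.

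The targeted RNA was too scarce to check the label. The lincYy1 row stood at 0.227 FPKM in siLinc-Yy1 and 0.360 FPKM in siNC, and Yy1 at 30.9 FPKM in siLinc-Yy1 and 28.6 FPKM in siNC. The cells carried the mark of myoblasts in both libraries, with all 9 markers of that type above 1 FPKM and Myod1, the muscle determination factor, at 67.0 FPKM in siLinc-Yy1 and 62.5 FPKM in siNC. Des, the muscle filament desmin, stood at 487 FPKM in siLinc-Yy1 and 322 FPKM in siNC (a log2 change of 0.60, or -0.039 less the running median of rows of like level), and Myog, a factor of differentiation, at 19.4 FPKM in siLinc-Yy1 and 22.8 FPKM in siNC. Of the 7 endothelial and blood markers in the table, Cd68 alone passed 1 FPKM, at 4.43 FPKM in siLinc-Yy1 and 4.48 FPKM in siNC. Their sum was 4.92 FPKM in siLinc-Yy1 and 4.93 FPKM in siNC. Of the 6 fibroblast and adipose markers, Pparg, Pdgfra and Fabp4 passed 1 FPKM. In siLinc-Yy1 they stood at 10.4, 4.69 and 1.63 FPKM, and in siNC at 8.04, 4.80 and 1.71 FPKM. All 6 summed to 17.1 FPKM in siLinc-Yy1 and 15.02 FPKM in siNC. The 8 epithelial and neural markers summed to 157 FPKM in siLinc-Yy1 and 122 FPKM in siNC. Most of this came from Tubb3, a tubulin (152 FPKM in siLinc-Yy1 and 117 FPKM in siNC). Krt14, also above 1 FPKM, stood at 4.22 FPKM in siLinc-Yy1 and 4.41 FPKM in siNC. The part of cells of these other types in the results was not tested. Steps in the FPKM of low single-exon rows put the depth near 47.3 M fragments for siLinc-Yy1 and 65.6 M for siNC, if the authors applied no further scaling.

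Of the 10 transporters, 9 had a mean of at least 1 FPKM, and 8 of these 9 were higher in siLinc-Yy1, where 45.4% of the 11792 rows past this filter were higher. The change is given as the log2 ratio of siLinc-Yy1 over siNC after adding 1 FPKM to each, which understates low genes. At least 1.5-fold higher on this scale were 3 of the 9 (Slc6a9, Slc7a5 and Slc3a2), beside 3.28% of all rows, and at least 2-fold higher was 1 (Slc6a9), beside 1.39%. None of the 9 was at least 1.5-fold lower, beside 0.517% of all rows. The median of the 9 was 0.53 and that of all rows -0.021. Since the carriers were chosen with this contrast known, nothing is read from these counts. Slc3a2 lay just inside the 1.5-fold line, with a fold of 1.52 after adding 1 FPKM, and Slc7a1 just outside it at 1.496.

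**Figure D1:**
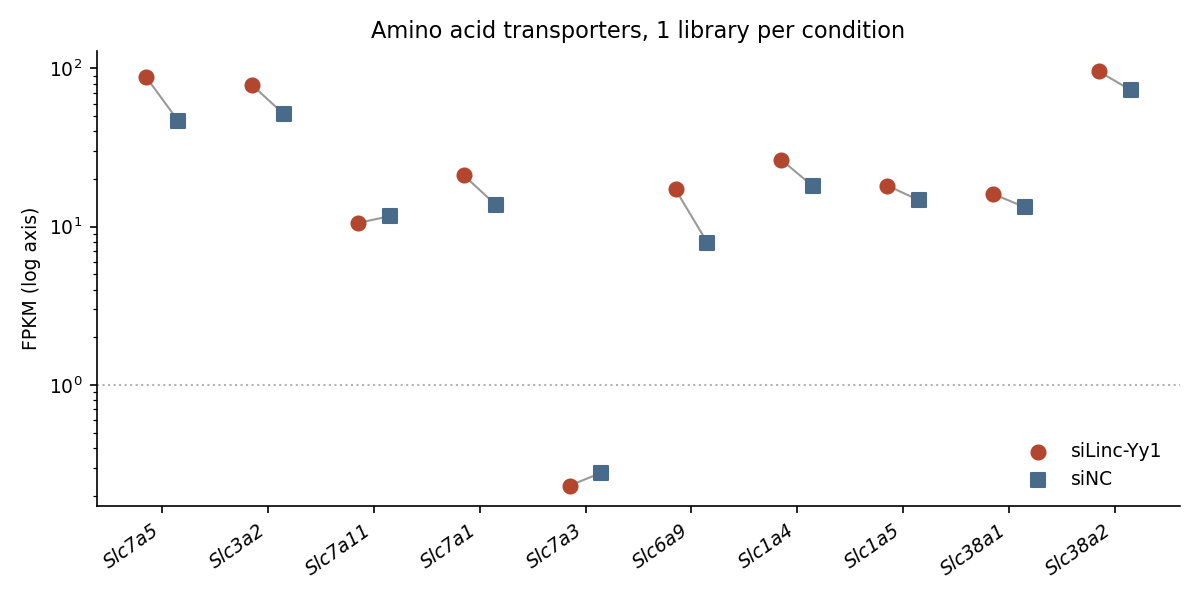
FPKM (log axis) of each transporter in the siLinc-Yy1 library (circles, left) and the siNC library (squares, right), with 1 library each and a dotted line at 1 FPKM. Circles lie above squares for 8 genes; Slc7a11 and Slc7a3 are the exceptions, and Slc7a3 lies below the dotted line in both libraries.

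Of the 10, the widest ratio belonged to Slc6a9, the glycine transporter GLYT1, which brings glycine in with sodium and chloride. It stood at 17.2 FPKM in siLinc-Yy1 and 7.94 FPKM in siNC, a ratio of 2.16 and a log2 change of 1.02. By level it was the seventh of the 10 in siLinc-Yy1 and the ninth in siNC, and among all rows past the filter it ranked 5000 in siLinc-Yy1 and 7859 in siNC. At the depths above, 1 kb of its transcript would draw about 813 fragments in siLinc-Yy1 and 521 in siNC, which gives the ratio an exact binomial interval (95%) of 1.94 to 2.42. That interval, like those below, covers counting error only. The row shares its locus (mm9, chromosome 4, 117507863 to 117545075) with Ccdc24, which stood at 4.04 FPKM in siLinc-Yy1 and 4.31 FPKM in siNC, so reads of the overlap had to be divided. Ccdc24 was thus near equal in both libraries where Slc6a9 was not. In the authors' deposited table the q-value of Slc6a9 was 2.88e-06.

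Slc7a5 and Slc3a2 together form LAT1, the exchanger that carries leucine and other large neutral amino acids in against glutamine. Slc7a5, the light chain that moves the substrate (mm9, chromosome 8, 124405046 to 124431586), stood at 87.8 FPKM in siLinc-Yy1 and 46.7 FPKM in siNC. Its log2 change was 0.90, and the counting interval of its ratio of 1.88 ran from 1.79 to 1.97. Slc3a2, the heavy chain CD98 that brings the complex to the surface (chromosome 19, 8781372 to 8797859), stood at 78.5 FPKM in siLinc-Yy1 and 51.3 FPKM in siNC, with a log2 change of 0.60. Both chains were thus higher in siLinc-Yy1, the light chain by more. In the authors' deposited table the q-value was 0.00832 for Slc7a5 and 0.173 for Slc3a2. That table had 2 of the 10 transporters under a q-value of 0.05 and higher, Slc7a5 and Slc6a9, beside 1.29% of its rows with status OK; it too compares single libraries.

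Slc7a11, the light chain of the cystine and glutamate exchanger xCT that feeds glutathione synthesis, also needs Slc3a2 but did not follow it. It stood at 10.6 FPKM in siLinc-Yy1 and 11.7 FPKM in siNC (chromosome 3, 50168858 to 50247535), a log2 change of -0.13. For 1 kb of transcript, the counting interval of its ratio of 0.905 ran from 0.808 to 1.02, which takes in equality. A longer transcript would narrow this interval, and whether it would then take in equality was not tested. Its q-value, from the authors' deposited table, was 1.00. This is the gene with 2 CARE matches before its start in the stretch printed above. The 3 windows of Slc6a9 had none, but letters outside the windows were not searched. Any bearing of these letters on the levels was not tested.

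Ratios between genes of the same library do not depend on a factor that scales the whole library. A trend with level can still alter how they compare between libraries. Less the running median of rows of like level, Slc7a5 stood at 0.74 and Slc7a11 at -0.054, beside log2 changes of 0.90 and -0.13. Slc7a5 over Slc3a2 was 1.12 in siLinc-Yy1 and 0.910 in siNC, and Slc7a11 over Slc3a2 was 0.135 in siLinc-Yy1 and 0.227 in siNC. Slc7a11 over Slc7a5 was 0.120 in siLinc-Yy1 and 0.250 in siNC. Summed over the 6 light chains that can pair with Slc3a2, the light chains stood at 110 FPKM in siLinc-Yy1 and 72.3 FPKM in siNC, and this sum over Slc3a2 was 1.40 in siLinc-Yy1 and 1.41 in siNC. The balance of light to heavy chain messages was thus close in both libraries while its makeup differed. Slc7a5 made up 79.9% of the light chain sum in siLinc-Yy1 and 64.6% in siNC, and Slc7a11 9.61% in siLinc-Yy1 and 16.1% in siNC. Slc7a6, a light chain for cationic and neutral exchange outside the 10, made up 9.43% in siLinc-Yy1 and 17.1% in siNC.

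**Figure D2:**
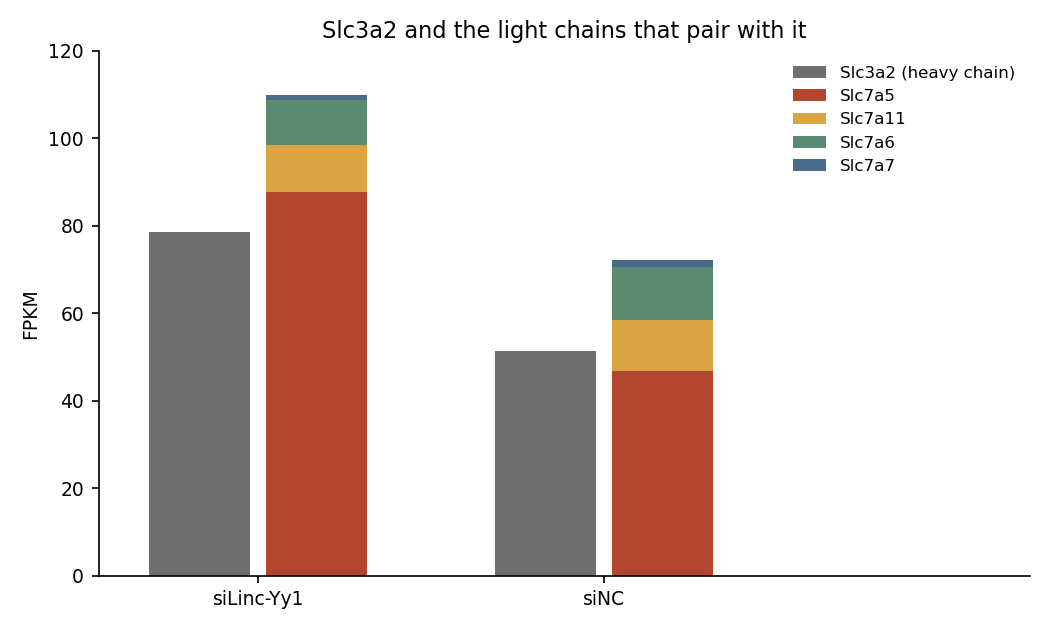
FPKM of the heavy chain Slc3a2 (grey bars) and, stacked beside it, of the light chains Slc7a5, Slc7a11, Slc7a6 and Slc7a7, in siLinc-Yy1 (left) and siNC (right); Slc7a8 and Slc7a10, both below 0.05 FPKM, are left out. The stack exceeds the grey bar by a like factor in both libraries (1.40 in siLinc-Yy1 and 1.41 in siNC), and Slc7a5 fills more of it in siLinc-Yy1.

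Slc7a1 and Slc7a3 encode CAT1 and CAT3, which carry arginine, lysine and ornithine. Slc7a1 (chromosome 5, 149138986 to 149211480) stood at 21.1 FPKM in siLinc-Yy1 and 13.8 FPKM in siNC, a ratio of 1.53 with a counting interval of 1.40 to 1.68 and a log2 change of 0.58. Slc7a3 (chromosome X, 98274560 to 98280691) was barely detected, at 0.231 FPKM in siLinc-Yy1 and 0.279 FPKM in siNC. That is about 11 fragments per kb of transcript in siLinc-Yy1 and 18 in siNC, and the counting interval of its ratio, 0.362 to 1.90, spans both directions. Of this pair, CAT1 thus supplied nearly all of the message in both libraries. Over Slc7a6, which also exchanges cationic amino acids, Slc7a1 was 2.04 in siLinc-Yy1 and 1.12 in siNC. In the authors' deposited table the q-value was 0.0740 for Slc7a1 and 1.00 for Slc7a3.

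Slc1a4 (ASCT1) and Slc1a5 (ASCT2) exchange small neutral amino acids with sodium, ASCT2 being a main entry for glutamine in growing cells. Slc1a4 (chromosome 11, 20202183 to 20232716) stood at 26.5 FPKM in siLinc-Yy1 and 17.99 FPKM in siNC, a log2 change of 0.53. Slc1a5 (chromosome 7, 17366695 to 17383623) stood at 18.2 FPKM in siLinc-Yy1 and 14.7 FPKM in siNC, a log2 change of 0.29. Both were higher in siLinc-Yy1, and Slc1a4 over Slc1a5 was 1.45 in siLinc-Yy1 and 1.22 in siNC. The counting interval of the ratio of siLinc-Yy1 over siNC was 1.36 to 1.59 for Slc1a4 and 1.13 to 1.36 for Slc1a5. The promoter of Slc1a4 holds the CARE letters across its start, as printed above, and its q-value in the authors' deposited table was 0.101.

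Slc38a1 (SNAT1) and Slc38a2 (SNAT2), neighbours on chromosome 15, load cells with glutamine, alanine and other small neutral amino acids by the sodium gradient, and SNAT2 is the classic system A carrier that cells raise when amino acids are removed. Slc38a2 (96517823 to 96530129) was the most abundant of the 10 in both libraries, at 95.8 FPKM in siLinc-Yy1 and 73.2 FPKM in siNC, a log2 change of 0.38. Slc38a1 (96401849 to 96473344) stood at 16.1 FPKM in siLinc-Yy1 and 13.3 FPKM in siNC, a log2 change of 0.26. The gap between these neighbours was alike in both libraries, Slc38a2 over Slc38a1 being 5.94 in siLinc-Yy1 and 5.50 in siNC. In the authors' deposited table the q-values of Slc38a2, Slc38a1 and Slc1a5 were 0.886, 0.892 and 0.723.

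By level, in siLinc-Yy1, Slc38a2, Slc7a5 and Slc3a2 led, then came Slc1a4, Slc7a1, Slc1a5, Slc6a9, Slc38a1, Slc7a11 and last Slc7a3. In siNC the order was Slc38a2, Slc3a2, Slc7a5, Slc1a4, Slc1a5, Slc7a1, Slc38a1, Slc7a11, Slc6a9 and Slc7a3. With 1 library each, no replicate spread says which neighbours in these orders differ. Summed, the 10 stood at 372 FPKM in siLinc-Yy1 and 251 FPKM in siNC.

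Abundant rows as a whole were higher in siLinc-Yy1, so each transporter was also set against the rows of like level, as a running median over the 150 rows on either side in mean FPKM. The median around Slc7a5 was 0.16, around Slc3a2 0.15 and around Slc38a2 0.19. Around Slc6a9 it was -0.077 and around Slc7a1 -0.047. Less this local median, Slc6a9 stood at 1.10, Slc7a5 at 0.74, Slc7a1 at 0.63, Slc1a4 at 0.53 and Slc3a2 at 0.46. Slc1a5 and Slc38a1 then stood at 0.33 and 0.32, Slc38a2 at 0.19 and Slc7a11 at -0.054. The share of rows at least 1.5-fold higher among those neighbours was 2.99% around Slc7a5 and 0.332% around Slc6a9. Against rows of like level, Slc7a1 moved past the 1.5-fold line and Slc3a2 under it. Of the rows around Slc38a2, 8.64% had a higher change than it did.

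**Figure D3:**
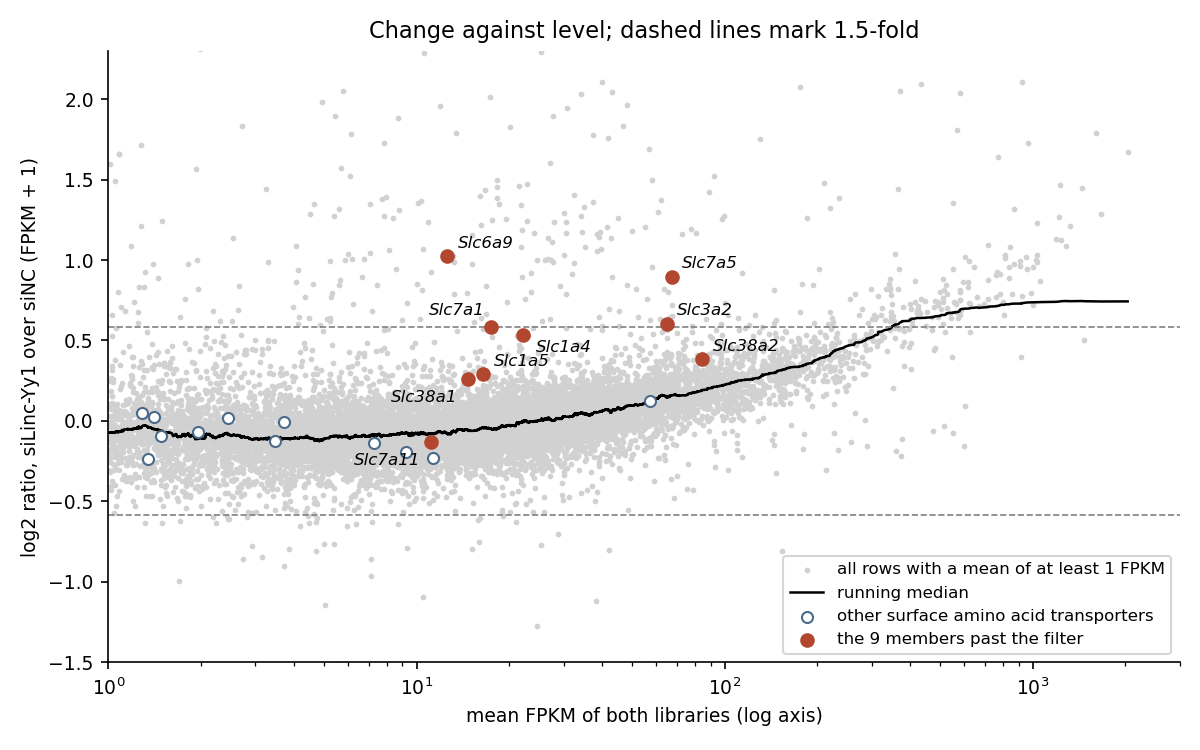
The log2 ratio of siLinc-Yy1 over siNC (1 FPKM added) against the mean FPKM of both libraries (log axis), for the 9 transporters past the filter (filled red), 12 other surface amino acid transporters (open blue) and all rows of at least 1 FPKM (grey; 33 lie beyond the axis). The black line is the running median, which climbs at high levels; 8 of the red points lie above it and Slc7a11 slightly below.

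A filter on rows leaves the log2 change of a single transporter as it is, whereas the scaling between libraries moved these values. The FPKM of all rows summed to 1.25 times as much in siLinc-Yy1 as in siNC. Scaled to equal sums, the median of all rows moved by -0.30 on the log2 scale, and rows at least 1.5-fold higher and lower numbered 201 and 483, beside 387 and 61 under the authors' scaling. There Slc6a9 stood at 0.72, Slc7a5 at 0.58 and Slc3a2 at 0.29. Under that scaling Slc1a5 and Slc38a1 turned to -0.015 and -0.042, and Slc7a11 stood at -0.42. The amount of FPKM added cannot turn the sign of a change, so direction was open only to equal sums, median centring and subtraction of the running median. Under these and the authors' scaling, Slc6a9, Slc7a5, Slc3a2, Slc7a1, Slc1a4 and Slc38a2 were above 0. Slc7a11 and Slc7a3 were below 0 under each of them that gave a value.

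**Figure D4:**
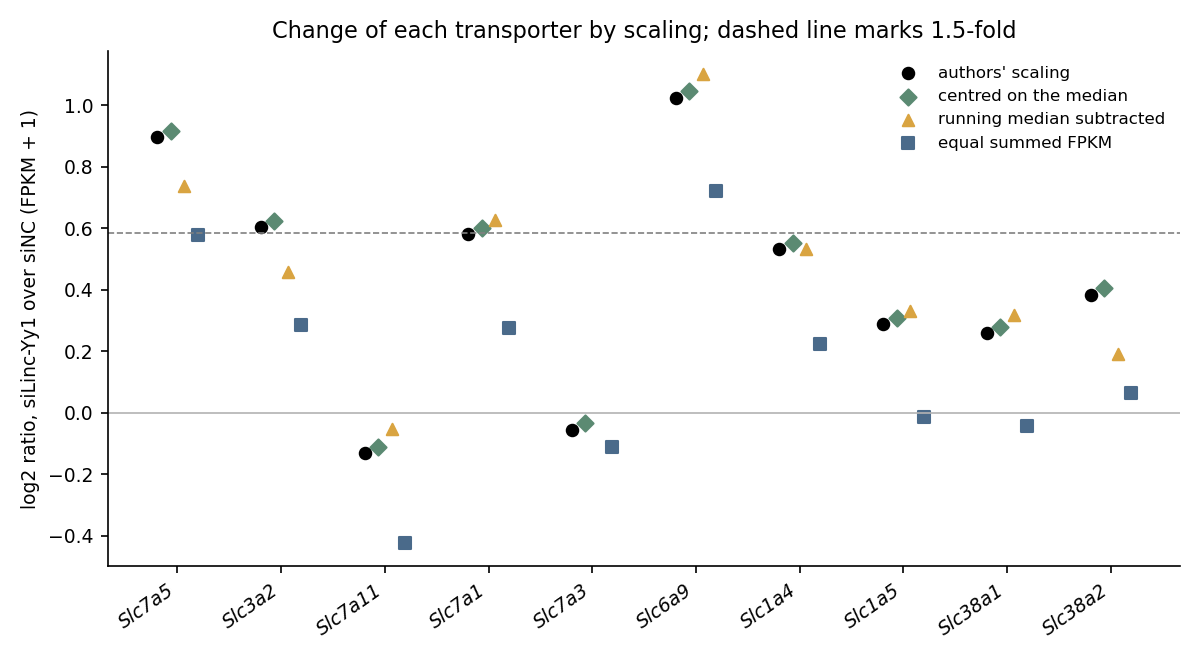
The log2 ratio of siLinc-Yy1 over siNC of each transporter under the authors' scaling (circles), centring on the median row (diamonds), subtraction of the running median (triangles; none for Slc7a3) and equal summed FPKM (squares), with the 1.5-fold line dashed. Equal sums (squares) give the lowest value of the 4 for all 10 genes, and of the squares that of Slc6a9 alone lies above the dashed line.

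The other carriers listed here as amino acid carriers of the cell surface stood close to equal in these libraries where measured. Of 38 listed, 12 had a mean of at least 1 FPKM. None of the 12 was at least 1.5-fold higher, beside 3.28% of all rows, or lower, beside 0.517%. Their median was -0.081, and their changes ran from -0.23 to 0.13. The most abundant was Slc6a6, the taurine transporter, of the same Slc6 family as Slc6a9, at 59.8 FPKM in siLinc-Yy1 and 54.7 FPKM in siNC. Slc6a9 over Slc6a6 was 0.288 in siLinc-Yy1 and 0.145 in siNC. Slc7a6 stood at 10.4 FPKM in siLinc-Yy1 and 12.3 FPKM in siNC, and Slc1a3, a glutamate carrier, at 8.58 FPKM in siLinc-Yy1 and 9.93 FPKM in siNC. Among the 26 below the filter, the authors' deposited table called 1, Slc38a8, at 0.839 FPKM in siLinc-Yy1 and 0.315 FPKM in siNC. The 10 transporters made up 77.6% of the summed FPKM of all 48 surface rows in siLinc-Yy1 and 70.4% in siNC. The members' sum differed 1.48-fold and that of the others 1.01-fold. Because the members were chosen with this contrast known, that gap follows at least in part from the choice. The 16 measured carriers listed for lysosomes and mitochondria had a median of -0.11. None was past 1.5-fold, beside 3.28% of all rows higher and 0.517% lower. Not all of them are amino acid carriers, as the list takes in the nucleoside carrier Slc29a3.

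Genes of the amino acid response, a list that shares no gene with the transporters, were mostly higher in siLinc-Yy1. At least 1.5-fold higher were 15 of 27 measured, beside 3.28% of all rows, and none was 1.5-fold lower, beside 0.517%. Above 0 were 26, beside 45.4% of all rows, and the median of the 27 was 0.67. Under equal summed FPKM 5 of them were at least 1.5-fold higher, beside 201 of all rows (387 under the authors' scaling). Chac1, which breaks down glutathione, stood at 70.2 FPKM in siLinc-Yy1 and 16.3 FPKM in siNC. Trib3, a pseudokinase that restrains ATF4, stood at 28.4 FPKM in siLinc-Yy1 and 6.29 FPKM in siNC. Asns, which makes asparagine, stood at 76.8 FPKM in siLinc-Yy1 and 39.1 FPKM in siNC.

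Atf4 itself stood at 249 FPKM in siLinc-Yy1 and 138 FPKM in siNC, a log2 change of 0.84 that was 0.48 less the local median. Nupr1, a stress-induced chromatin protein, stood at 149 FPKM in siLinc-Yy1 and 78.2 FPKM in siNC, and Herpud1, of protein disposal at the endoplasmic reticulum, at 66.3 FPKM in siLinc-Yy1 and 37.1 FPKM in siNC. The log2 changes of Slc6a9 and Slc7a5 (1.02 and 0.90) lay near that of Asns (0.96) and below those of Chac1 and Trib3 (2.04 and 2.01). This response was known in these data when the list was made, so it is no independent support.

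Genes that sense amino acids for the kinase mTORC1, which LAT1 feeds with leucine, were close in both libraries. The median of the 27 measured was -0.038. At least 1.5-fold higher was 1, beside 3.28% of all rows. That gene was Sesn2, a leucine sensor and itself an ATF4 target, also in the amino acid response list. It stood at 20.9 FPKM in siLinc-Yy1 and 12.8 FPKM in siNC. Under equal summed FPKM or with 5 FPKM added the count was 0, beside 201 and 317 of all rows. Among the 18 enzymes that handle glutamine and glutamate, the median was 0.022 and 2 were at least 1.5-fold higher, beside 3.28% of all rows. These were Asns, which is also in the amino acid response list, and Gpt2, the mitochondrial alanine aminotransferase, which stood at 36.1 FPKM in siLinc-Yy1 and 17.4 FPKM in siNC.

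Genes of glutathione and NRF2, the setting of xCT, had a median of 0.19, or 0.060 less the local median. At least 1.5-fold higher was 1 of 19, beside 3.28% of all rows. That was Gpx4, which reduces lipid peroxides, at 431 FPKM in siLinc-Yy1 and 274 FPKM in siNC and 0.060 less the local median. Under equal sums or less the running median the count was 0, beside 201 and 252 of all rows. Slc7a11 lay below this list's median. Hexose and lactate carriers had a median of 0.11. Of these, 1 of 7 was at least 1.5-fold higher, beside 3.28% of all rows. It was Bsg, a chaperone of lactate carriers (427 FPKM in siLinc-Yy1 and 267 FPKM in siNC, 0.098 less the local median). For this list too the count was 0 under equal sums or less the running median, beside the same 201 and 252 rows. Past the filter were 165 other rows whose symbols begin with Slc and a number, with a median of -0.074. Of these, 0 were at least 1.5-fold higher, beside 3.28% of all rows. As the members were chosen with this contrast known, nothing is read from the gap between them and this remainder.

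**Figure D5:**
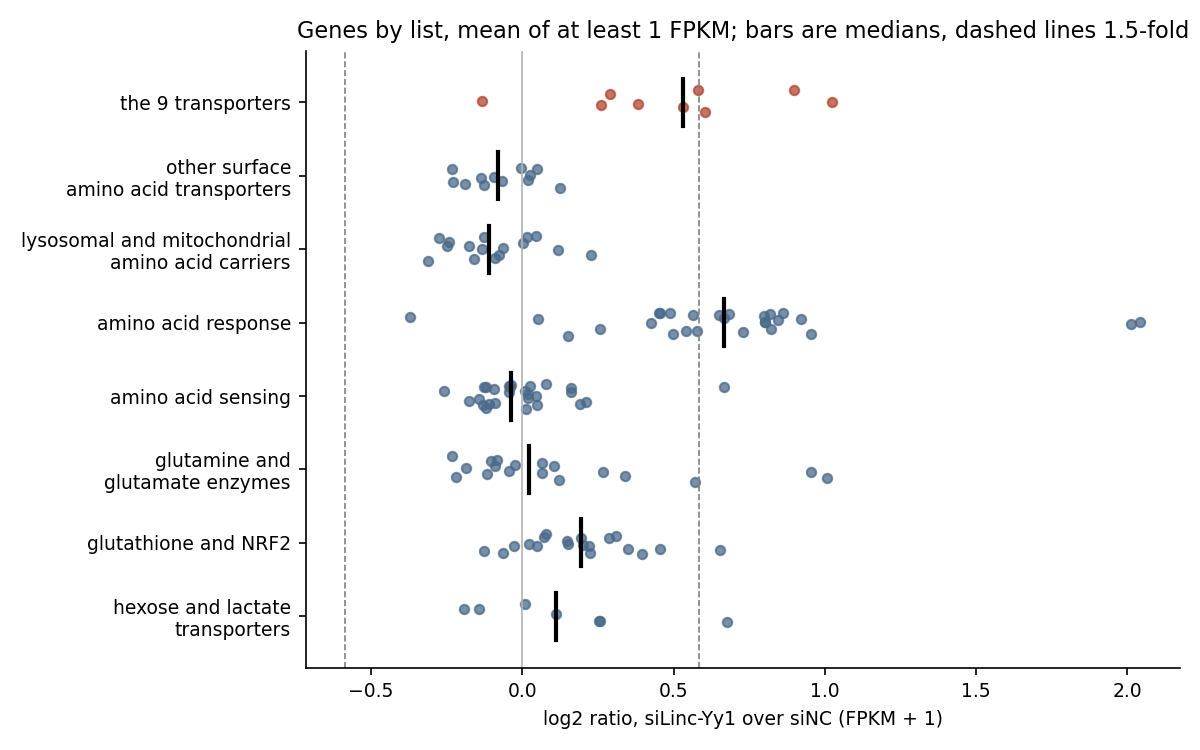
The log2 ratio of siLinc-Yy1 over siNC (1 FPKM added) of each gene with a mean of at least 1 FPKM, by list, with list medians as black bars and 1.5-fold as dashed lines; points are spread vertically for sight. The transporters (red, median 0.53) and the amino acid response (0.67) sit to the right of the other lists, whose medians lie between -0.11 and 0.19. The transporters and the lists were chosen with earlier results of these data known.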

How the data were processed

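Per the submitters' processing notes, the tools were TopHat2 2.0.4, Cufflinks 2.1.1, Cuffdiff 2.0.4 and MACS2 1.4.2 with the mouse build mm9. The annotation, strand use and scaling between libraries were not given in the sources used here. The deposited table, in 2 identical copies, holds FPKM that the authors estimated per gene and library, per the file headers, and the authors' Cuffdiff q-value for this pair. The first FPKM column was read as siNC and the second as siLinc-Yy1, the order of the condition names in the header.

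Changes were computed as log2 of FPKM plus 1 in Python 3.11.15 with pandas 2.3.3, over rows with a mean of at least 1 FPKM. Depth came from receptor rows, 402 in siLinc-Yy1 (63.7% whole) and 526 in siNC (68.4% whole), whole being within 0.02 fragments; no count test was run. Intervals assume 1 kb of transcript, are exact (Clopper-Pearson, SciPy 1.17.1), and narrow for longer transcripts. Calls, trend and depth steps were tested on simulated data.

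The members and lists were chosen with earlier results of these data known. Named genes are all members, the target and Yy1, and from each of 7 other lists up to 6 genes of at least 5 FPKM and 1.5-fold; other genes were named after their values were seen. Each value was also computed with 0.1 or 5 FPKM added, without the filter, at a mean of at least 5 FPKM, with equal sums, median centring, subtraction of the running median and status OK only.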

Additional observations from a re-analysis of the deposited data

How the results depend on the processing

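The count of transporters at least 1.5-fold higher (3) became 1 under equal summed FPKM, and that at least 2-fold higher (1) became 0 under equal sums and with 5 FPKM added. Elsewhere the first count lay between 2 and 4. The members' median of 0.53 was 0.55 with 0.1 FPKM added, 0.45 with 5 FPKM added, 0.46 with no filter (which lets in Slc7a3), 0.22 under equal sums, 0.55 when centred on the median and 0.46 less the running median. Over all rows, the count at least 1.5-fold lower (61) became 154 with 0.1 FPKM added, 26 with 5 FPKM added, 25 at a mean of at least 5 FPKM, where fewer rows are counted, and 483 under equal sums. The count at least 1.5-fold higher (387) became 201 under equal sums and 252 less the running median. The count at least 2-fold higher (164) became 109 with 5 FPKM added and 89 under equal sums. The cause of these shifts, beyond the construction of each alternative, was not tested. Under the alternatives that can alter a single member's log2 change, 14 of 49 such values moved beyond the counting interval, 9 of them under equal sums. That interval is of the ratio with no FPKM added and for 1 kb of transcript, so this count depends on that length. Of 56 counts for the other lists, 7 moved by over 1.5 times, 4 of them under equal sums. No paired analysis was possible because each condition has 1 library. For Slc7a3, below 1 FPKM, the counting interval of the ratio for 1 kb of transcript spans both directions.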

Other observations

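Carriers of other substrates were named after their values were seen. Their changes upward were smaller than those of the leading amino acid transporters, which were chosen with this contrast known. Downward, Slc25a14 (-0.59) lay about as far from 0 as Slc3a2 (0.60). Among the other Slc rows the highest change was that of Slc25a3, the mitochondrial phosphate carrier, at 254 FPKM in siLinc-Yy1 and 187 FPKM in siNC, a log2 change of 0.44 that was 0.026 less the running median. Slc25a1, the mitochondrial citrate carrier, stood at 81.1 FPKM in siLinc-Yy1 and 60.3 FPKM in siNC (0.26 less the running median). Slc16a11, of the monocarboxylate carrier family, was the highest of the other Slc rows less the running median, at 0.32, which is about that of Slc38a1 (also 0.32) and above that of Slc38a2 (0.19). It stood at 23.8 FPKM in siLinc-Yy1 and 19.2 FPKM in siNC. Slc2a1, the glucose transporter GLUT1, stood at 82.8 FPKM in siLinc-Yy1 and 69.3 FPKM in siNC (0.088 less the running median), and Slc16a1, the lactate carrier MCT1, at 39.2 FPKM in siLinc-Yy1 and 32.6 FPKM in siNC (0.22 less the running median).

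At the other end, Slc25a14, a mitochondrial carrier of the uncoupling protein family, stood at 3.35 FPKM in siLinc-Yy1 and 5.53 FPKM in siNC. It was the 1 other Slc row at least 1.5-fold lower, with a log2 change of -0.59 that was -0.48 less the running median, inside the 1.5-fold line. Slc26a2, a sulfate carrier, stood at 3.06 FPKM in siLinc-Yy1 and 4.10 FPKM in siNC. Of the kinases upstream of ATF4, Eif2ak4 (GCN2, which senses uncharged tRNA) stood at 10.5 FPKM in siLinc-Yy1 and 10.1 FPKM in siNC, and Eif2ak3 (PERK, of the endoplasmic reticulum) at 6.93 FPKM in siLinc-Yy1 and 9.25 FPKM in siNC. These are message levels and say nothing of kinase activity.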
